A study of Mus musculus with 2 samples.

Results

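The genes described here come from families of cell-surface receptors with which myeloid cells read sugars, antibodies and their neighbours: the C-type lectin domain family (Clec), the sialic acid-binding Siglecs with Cd33 and Cd22, the Fc receptors of immunoglobulin G with their shared chain Fcer1g, and the paired receptor families Cd300, Pilr, Lilr, Sirp and Trem. They were measured in BV2, an immortalized line of mouse microglia, on 1 Affymetrix Mouse Gene 1.0 ST array of cells kept in DMEM/F12, a nutrient-enriched medium, and 1 array of cells kept in DMEM, the standard medium; both media held fetal bovine serum. According to the methods all cells were plated in DMEM/F12, and on the next day the medium was exchanged for DMEM/F12 or for DMEM for 1 d, whereas the labels speak of an incubation longer than 1 day. Members were chosen by gene symbol alone, and Clec7a was left out. Some members therefore encode no surface receptor, such as Clec11a, Clec3b and Clec16a, but are counted among the receptor genes here. Trem2 and Siglech, which the symbol rule does not cover, are not members. This gave 65 genes on 66 transcript clusters, the probe groups that each measure a gene or a part of it, of 19938 genes with a cluster of their own among 28944 clusters in all. Another 8 clusters carry several symbols of which at least 1 matches, and they were left out and not named. Their differences lay between -0.51 and 0.17.

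Most of these families work as opposed pairs. Activating receptors have short tails and signal through adaptor proteins, chiefly the products of Fcer1g and Tyrobp (DAP12), whose phosphorylated motifs recruit the kinase Syk. Inhibitory receptors carry tyrosine motifs of their own and recruit the phosphatases encoded by Ptpn6, Ptpn11 and Inpp5d. In microglia such receptors set the threshold for engulfing opsonized, dying or sugar-coated targets.

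Values are on the log2 scale, and a difference is positive where the DMEM/F12 array had the higher value. A replicate error cannot be had from 1 array per medium, so no test was run and every statement compares these 2 arrays only. The medium cannot be told apart from any other difference between the 2 cultures. In bulk RNA, fewer cells that carry a transcript and less of it per cell cannot be told apart either. As background served the 95th percentile of the 1248 clusters for odorant, vomeronasal and taste receptor genes, which was 4.17 in DMEM/F12 and 4.15 in DMEM. A gene was above background if a cluster of it passed this level on at least 1 array, which 13225 of all genes and 41 of the 65 receptor genes did (39 on both arrays). Levels of different genes rest on different probes and were not compared with each other.

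The myeloid markers looked for were mostly present. Of 10 measured macrophage and microglia markers 9 were above background on at least 1 array, but Aif1 was not, at 3.14 in DMEM/F12 and 3.53 in DMEM. Their median difference was 0.01, though Csf1r had 8.47 in DMEM/F12 and 8.79 in DMEM, a difference of -0.32. Fcer1g is on this list and is also a member. Of 6 markers of mature microglia only Tmem119, Olfml3 and Sall1 were above background, and Tmem119 had 6.05 in DMEM/F12 and 6.71 in DMEM, a difference of -0.66. Summed on the linear scale, the mature markers came to 157.2 in DMEM/F12 and 211.3 in DMEM, with Tmem119 as the main part of the gap, and the macrophage and microglia markers to 10027.1 in DMEM/F12 and 9799.0 in DMEM. Lists of 7 other cell types held 1 to 3 genes above background each, none over 6.75 on either array. Their part in the results was not tested.

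The receptor genes had no common direction, and several of the larger differences belonged to genes that are neighbours. Higher in DMEM/F12 were the lectin genes Clec4n, Clec4d and Clec4e, the Siglec gene Cd33 and the neighbours Lilr4b and Lilrb4a. Lower were all 3 Pilr genes, Clec4a3, Clec5a, Fcgr1, Cd300lg and Cd300lf. Over all 65 genes the median difference was 0.01, with 34 higher, 27 lower and 4 equal, against a median of 0.00 over all genes. Over the 41 above background it was 0.04, with 24 higher, 16 lower and 1 equal.

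At 1.5-fold or more, 2 receptor genes were lower in DMEM/F12, Pilrb1 and Clec4a3, and 0 were higher. Of all genes 0.727% were at least 1.5-fold lower and 0.928% at least 1.5-fold higher. Clec4d lay just short of this threshold, at 1.49-fold higher. At the milder threshold of 1.2-fold, a log2 difference of 0.26, 7 of the 41 genes above background were higher and 9 lower. The background shares were 9.84% higher and 9.67% lower among all genes above background. Together 16 of 41 receptor genes, or 39.0%, lay past 1.2-fold in either direction, against 19.5% of all genes above background. The SD of the differences was 0.345 over these receptor genes and 0.217 over all genes above background, and the median size was 0.17 and 0.14. Related receptors outside the symbol rule came close to this, with 35.3% of 17 genes above background past 1.2-fold and an SD of 0.338. Among these related genes, Cd93 (0.72) and Cd209c (-0.57) passed background on 1 array only. With values raised to background they came to 0.46 and -0.40. This list too was chosen with earlier results of these data known. Whether the wider spread is particular to the members was not tested. The 16 genes include Pilr and Lilr neighbours, and whether their clusters measure separate transcripts was not tested.

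**Figure D1:**
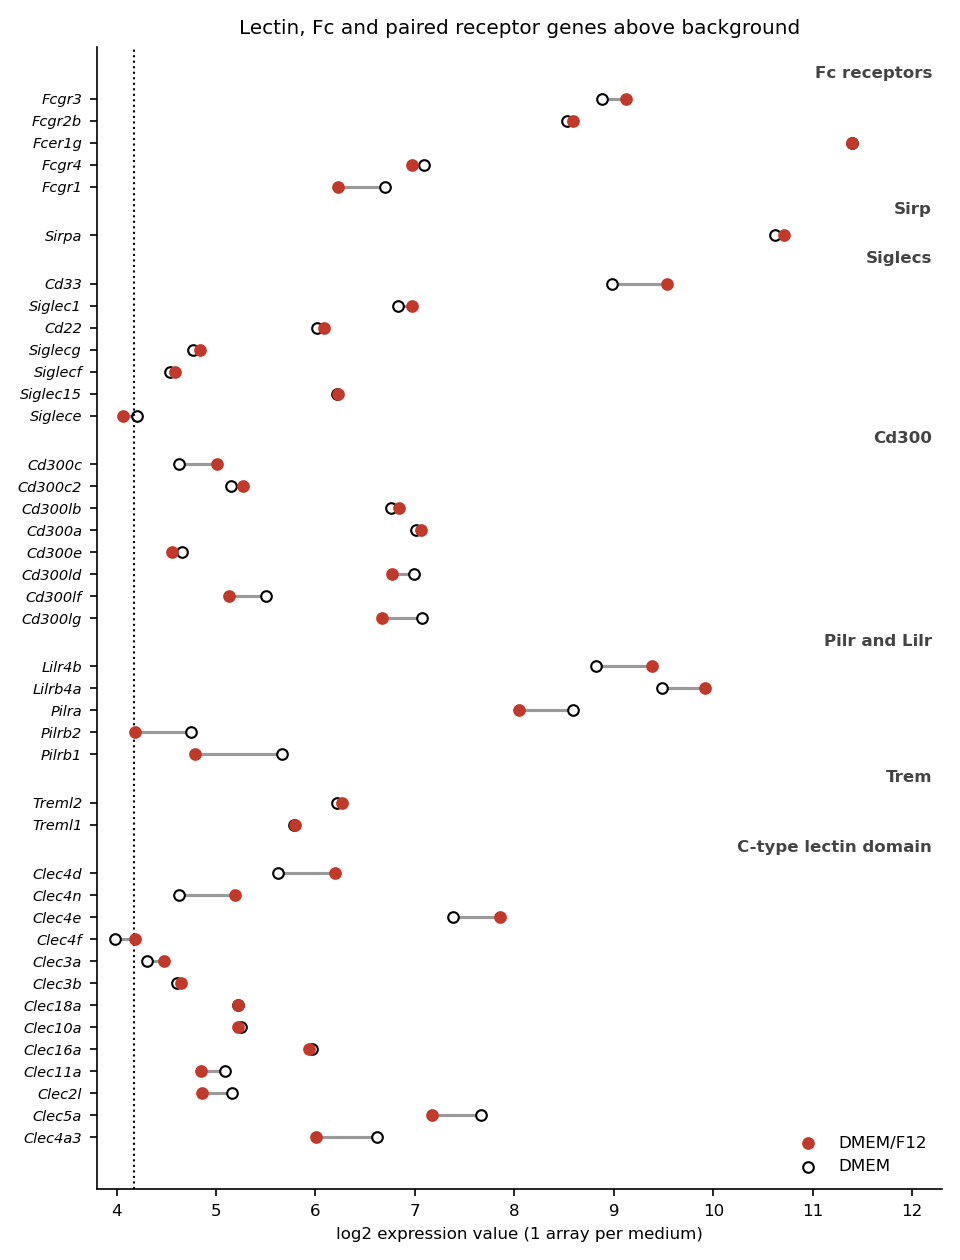
Log2 expression value (x axis) of each of the 41 receptor genes above background (y axis, grouped by family and ordered by difference) on the DMEM/F12 array (red circles) and the DMEM array (open circles), joined by a gray line; the dotted line marks the DMEM/F12 background of 4.17. The longest lines are those of Pilrb1 and Clec4a3, at -0.87 and -0.61, while Fcer1g and Sirpa lie close on both arrays.

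**Figure D2:**
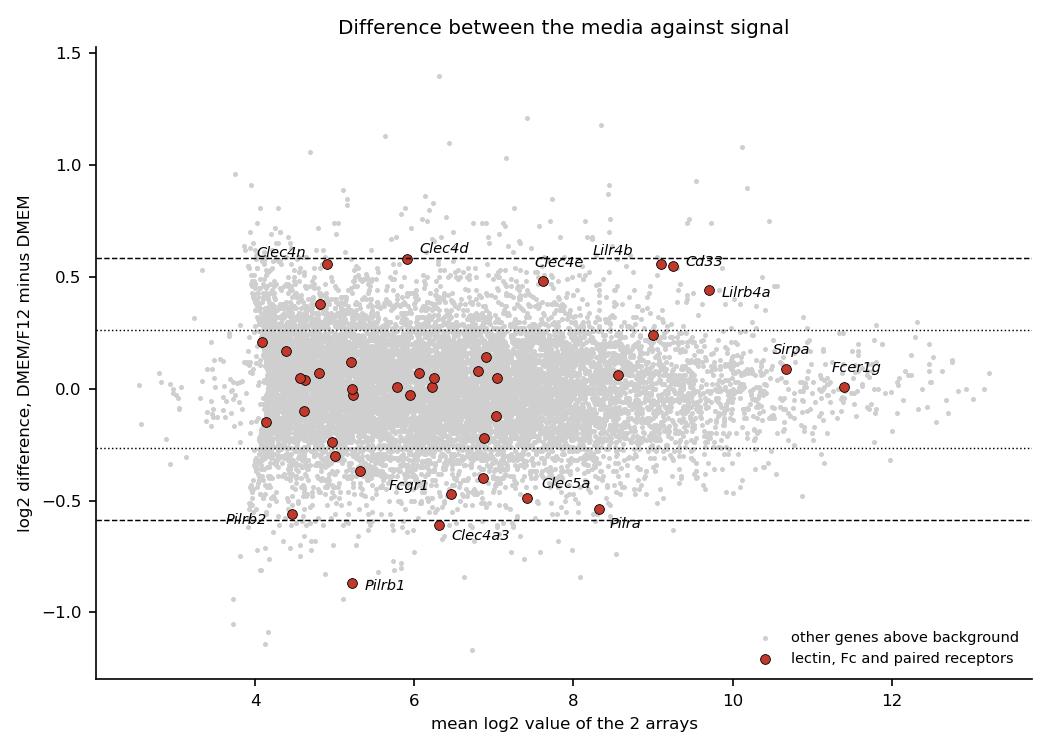
Difference in log2 value between DMEM/F12 and DMEM (y axis, positive where higher in DMEM/F12) against the mean log2 value of both arrays (x axis) for all 13225 genes above background (gray) and the 41 receptor genes among them (red). Dashed lines mark 1.5-fold and dotted lines 1.2-fold, and Pilrb1 and Clec4a3 are the receptor genes below the lower dashed line.

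The paired immunoglobulin-like type 2 receptor genes were lower in DMEM/F12 as a block. Pilra encodes the inhibitory member, which binds sialylated proteins, and Pilrb1 and Pilrb2 encode activating partners that signal through DAP12. Pilrb1 had 4.79 in DMEM/F12 and 5.66 in DMEM, 1.83-fold lower. Pilra had 8.05 in DMEM/F12 and 8.59 in DMEM (1.45-fold lower), and Pilrb2 had 4.19 in DMEM/F12 and 4.75 in DMEM (1.47-fold lower), so that the inhibitory gene and both activating genes differed the same way. Of the 13225 genes above background, 7 had a difference as low as that of Pilrb1 or lower, 107 as low as that of Pilrb2 and 126 as low as that of Pilra, each count with the gene itself. In DMEM/F12 Pilrb2 was only just above the background of 4.17. In the RefSeq gene order of the GRCm38.p6 assembly the 3 genes are direct neighbours. On the side of Pilra, Zcwpw1 had 9.03 in DMEM/F12 and 8.97 in DMEM, and Mepce, 1 place farther, had 6.72 in DMEM/F12 and 6.88 in DMEM. On the side of Pilrb2, Cyp3a13 was below background on both arrays.

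The upstream sequences of these genes are shown because they are near copies of each other. Each is the 250 bases before the RefSeq gene start (GRCm38.p6, minus strand, 5′ to 3′) at chr5:137836279-137836528, chr5:137858050-137858299 and chr5:137871759-137872008, and capitals mark the motifs named below.
Pilra: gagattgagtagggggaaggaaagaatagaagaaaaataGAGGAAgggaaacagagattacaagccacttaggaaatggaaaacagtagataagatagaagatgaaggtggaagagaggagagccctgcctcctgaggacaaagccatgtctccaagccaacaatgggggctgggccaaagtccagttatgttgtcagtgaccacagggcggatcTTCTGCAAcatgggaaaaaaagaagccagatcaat
Pilrb1: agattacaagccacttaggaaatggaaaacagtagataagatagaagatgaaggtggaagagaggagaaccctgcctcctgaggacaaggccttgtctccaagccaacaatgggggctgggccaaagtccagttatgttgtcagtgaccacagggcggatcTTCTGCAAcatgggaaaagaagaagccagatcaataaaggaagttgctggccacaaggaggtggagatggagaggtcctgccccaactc
Pilrb2: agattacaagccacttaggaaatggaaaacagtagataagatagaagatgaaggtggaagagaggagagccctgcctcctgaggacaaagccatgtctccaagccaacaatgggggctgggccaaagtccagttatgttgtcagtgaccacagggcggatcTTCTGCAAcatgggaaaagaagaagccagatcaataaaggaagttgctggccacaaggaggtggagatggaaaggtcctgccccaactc
The windows of Pilrb1 and Pilrb2 were identical at 246 of 250 bases (98.4%). In an alignment that allows gaps, the window of Pilra shared 195 of 196 aligned bases with Pilrb2 and 192 of 196 with Pilrb1, shifted along the sequence. These windows lie outside the transcripts, and how far the 3 clusters measure separate transcripts was not tested.

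Genes of the Clec4 locus differed in both directions. Clec4n (Dectin-2, a receptor for fungal mannans), Clec4d (MCL) and Clec4e (Mincle, which senses mycobacterial glycolipid and the nuclear protein SAP130 from dead cells) encode activating lectins that signal through the Fcer1g chain. Clec4d had 6.20 in DMEM/F12 and 5.62 in DMEM, a difference of 0.58. Clec4n had 5.19 in DMEM/F12 and 4.63 in DMEM (0.56), and Clec4e had 7.86 in DMEM/F12 and 7.38 in DMEM (0.48). All 3 were thus 1.39- to 1.49-fold higher in DMEM/F12, and they lie side by side at one end of the locus. Among all genes above background, 110 had a difference as high as that of Clec4d, 129 as high as that of Clec4n and 255 as high as that of Clec4e, each count with the gene itself.

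Toward the other end of the same locus lies Clec4a3, a gene of the DCIR subfamily. It was 1.53-fold lower, with 6.01 in DMEM/F12 and 6.62 in DMEM, and 69 genes above background had a difference as low, itself among them. The 5 genes between or beside these, Clec4a1, Clec4a2, Clec4a4, Clec4b1 and Clec4b2, were not above background on either array. Their differences ran from -0.44 for Clec4a2 to 0.37 for Clec4b2, all between values below background. Beyond the locus, Necap1, next to Clec4a1, had 7.39 in DMEM/F12 and 7.28 in DMEM, and C3ar1, the complement C3a receptor gene 1 place farther, had 9.15 in DMEM/F12 and 9.55 in DMEM. The bar plot of the loci shows this change of direction along the gene order.

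**Figure D3:**
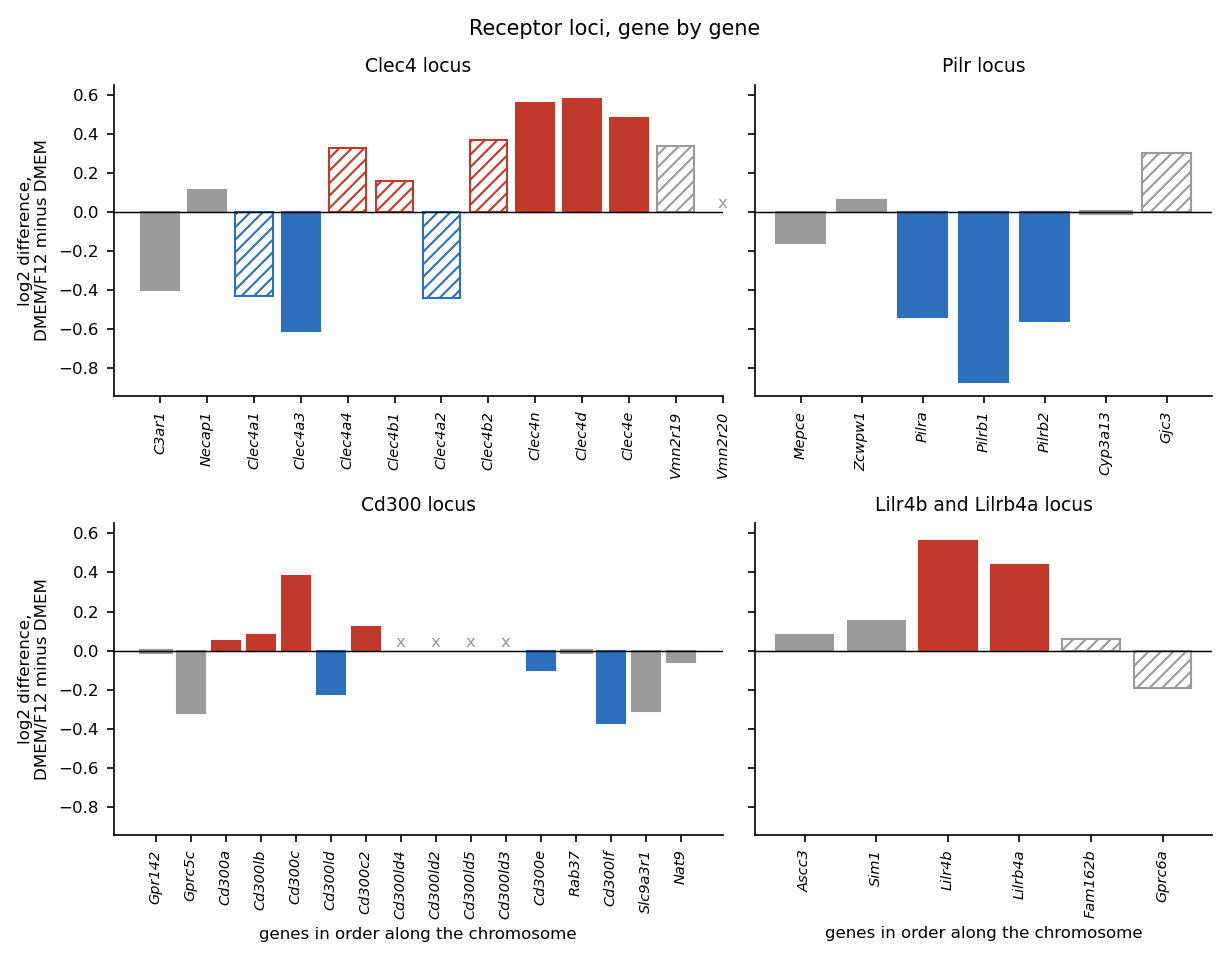
Differences in log2 value between DMEM/F12 and DMEM (y axis) for the genes of 4 receptor loci and 2 neighbouring protein-coding genes on each side, in RefSeq order (x axis). Receptor genes are red where higher and blue where lower in DMEM/F12, other genes are gray, hatched bars are genes not above background on either array, a bar of no height is a difference of 0, and x marks a gene with no cluster of its own; the 3 Pilr genes point down together, while the Clec4 locus holds Clec4a3 at -0.61 and Clec4d at 0.58.

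Upstream sequences of the 2 higher genes of this locus that the RefSeq table holds are shown for comparison with each other, as the 250 bases before the start at chr6:123261857-123262106 (plus strand) and chr6:123289872-123290121 (minus strand), GRCm38.p6, 5′ to 3′.
Clec4d: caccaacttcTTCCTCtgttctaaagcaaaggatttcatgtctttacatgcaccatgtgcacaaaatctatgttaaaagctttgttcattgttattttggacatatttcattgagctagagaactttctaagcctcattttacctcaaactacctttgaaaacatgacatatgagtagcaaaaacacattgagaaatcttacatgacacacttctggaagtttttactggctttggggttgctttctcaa
Clec4e: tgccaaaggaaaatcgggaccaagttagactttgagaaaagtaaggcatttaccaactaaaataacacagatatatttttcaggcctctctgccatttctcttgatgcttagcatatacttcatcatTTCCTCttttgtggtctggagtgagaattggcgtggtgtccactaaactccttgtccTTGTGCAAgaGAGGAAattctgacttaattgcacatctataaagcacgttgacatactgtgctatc
Unlike the Pilr windows these were not near copies. The motifs searched, on both strands, were GAGGAA, the core bound by the myeloid factor PU.1 and other ETS proteins, TTGCNNAA for C/EBP proteins, TGANTCA for AP-1 and the NF-κB motif. Capitals mark GAGGAA or its reverse once in Pilra, once in Clec4d and 2 times in Clec4e, and the C/EBP motif once in each Pilr gene and once in Clec4e; neither the AP-1 nor the NF-κB motif occurs in the 5 windows. Among the 51 receptor genes with an upstream window, 30 of their 55 windows (54.5%) held GAGGAA, against 23.3% of all 32851 windows, and 11 (20.0%) held the C/EBP motif, against 9.56%. These 11 include the windows of Pilra, Pilrb1 and Pilrb2, near copies that carry the same C/EBP match, so they are not separate cases. The AP-1 motif was in 9.09% and 6.75%, and the NF-κB motif in 9.09% and 3.90%, of receptor and all windows. The receptor windows held less G and C (a median of 46.4% against 52.4%). Among windows under 50% G and C, GAGGAA was in 18 of 34 receptor windows (52.9%) and in 23.5% of all, and the C/EBP motif in 20.6% and 13.5%. The AP-1 motif was there in 11.8% and 9.82%, and the NF-κB motif in 5.88% (2 windows) and 1.97%. A match describes letters in a window and no binding. Spi1, which encodes PU.1, had 10.30 in DMEM/F12 and 10.34 in DMEM.

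The other C-type lectin genes above background differed less than those of the Clec4 locus, apart from Clec5a. Clec5a, an activating receptor coupled to DAP12, had 7.17 in DMEM/F12 and 7.66 in DMEM, 1.40-fold lower. Clec2l was 1.23-fold lower (4.86 in DMEM/F12 and 5.16 in DMEM), and Clec11a, which encodes a secreted growth factor, 1.18-fold lower (4.85 in DMEM/F12 and 5.09 in DMEM). The galactose-binding receptor gene Clec10a had 5.22 in DMEM/F12 and 5.25 in DMEM, Clec18a had 5.22 on both arrays and Clec16a, whose product serves mitophagy and is no surface receptor, 5.93 in DMEM/F12 and 5.96 in DMEM. These last 3 genes were within 0.03 of equal. Clec3a had 4.48 in DMEM/F12 and 4.31 in DMEM, and Clec3b, which encodes the plasminogen-binding protein tetranectin, 4.65 in DMEM/F12 and 4.61 in DMEM. Clec4f, the Kupffer cell lectin, crossed background only in DMEM/F12 (4.19, and 3.98 in DMEM). In the whole family 13 of 32 genes were above background, of which 3 were higher and 3 lower past 1.2-fold. This was 46.2% of the 13, against 19.5% of all genes above background. Most of those past 1.2-fold, Clec4n, Clec4d, Clec4e and Clec4a3, lie in the Clec4 locus, and 13 genes are few to set against that share.

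Among the Siglecs, which bind sialic acid, Cd33 stood apart from its relatives. Cd33 had 9.53 in DMEM/F12 and 8.98 in DMEM, a difference of 0.55 or 1.46-fold, and 138 genes above background had a difference as high, itself among them. The other 6 genes lay within 0.15 of equal. Siglec1 (sialoadhesin, a macrophage adhesion receptor) had 6.97 in DMEM/F12 and 6.83 in DMEM, and Cd22, the inhibitory receptor best known from B cells, had 6.09 in DMEM/F12 and 6.02 in DMEM. Siglec15, which couples to DAP12 in osteoclasts, had 6.23 in DMEM/F12 and 6.22 in DMEM. The inhibitory genes Siglecg (4.84 in DMEM/F12 and 4.77 in DMEM) and Siglecf (4.59 in DMEM/F12 and 4.54 in DMEM) were a little above background on both arrays. Siglece, with 4.06 in DMEM/F12 and 4.21 in DMEM, passed it in DMEM alone, and its difference of -0.15 became -0.04 with the value raised to background. Siglech, a microglial Siglec outside the symbol rule, was below background with 3.56 in DMEM/F12 and 3.71 in DMEM.

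The Fc receptor genes for immunoglobulin G were all above background, and Fcgr1 was the one that differed most. Fcgr1, the high-affinity receptor, had 6.23 in DMEM/F12 and 6.70 in DMEM, 1.39-fold lower. Fcgr3, a low-affinity activating receptor, had 9.12 in DMEM/F12 and 8.88 in DMEM (a difference of 0.24), and Fcgr4 had 6.97 in DMEM/F12 and 7.09 in DMEM (-0.12). The inhibitory receptor gene Fcgr2b had 8.59 in DMEM/F12 and 8.53 in DMEM, and Fcer1g, the signalling chain shared by these activating receptors and the Clec4 lectins, 11.40 in DMEM/F12 and 11.39 in DMEM. Fcgr2b and Fcgr3 are close in sequence over their extracellular part, and their values may not be separate. The common chain was thus nearly equal while receptors that use it differed in both directions. Sirpa, the inhibitory receptor for the phagocytosis checkpoint CD47, had 10.71 in DMEM/F12 and 10.62 in DMEM, and Cd47 itself 6.65 in DMEM/F12 and 6.53 in DMEM.

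Both Lilr genes above background were higher in DMEM/F12. Lilrb4a encodes the inhibitory receptor gp49B and Lilr4b its close relative gp49A, which lacks the inhibitory motifs. Lilr4b had 9.38 in DMEM/F12 and 8.82 in DMEM, 1.47-fold higher, and Lilrb4a had 9.92 in DMEM/F12 and 9.48 in DMEM, 1.36-fold higher. They are direct neighbours in the RefSeq order, and whether their clusters measure separate transcripts was not tested. Sim1, next to Lilr4b, had 4.29 in DMEM/F12 and 4.14 in DMEM, and Fam162b, next to Lilrb4a, was below background. Lilra5 and Lilra6 were below background on both arrays.

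The 8 Cd300 genes with a cluster of their own, from a family of receptors for lipids such as phosphatidylserine, were all above background, with 4 higher and 4 lower. Another 4 genes of the locus, Cd300ld2 to Cd300ld5 in name, have no such cluster and were not analysed here. Cd300c was 1.30-fold higher (5.01 in DMEM/F12 and 4.63 in DMEM). Lower were Cd300lg, best known from endothelium, by 1.32-fold (6.67 in DMEM/F12 and 7.07 in DMEM), the inhibitory Cd300lf by 1.29-fold (5.13 in DMEM/F12 and 5.50 in DMEM) and Cd300ld by 1.16-fold (6.77 in DMEM/F12 and 6.99 in DMEM). The other 4 were close. Cd300a, the inhibitory receptor for phosphatidylserine, had 7.06 in DMEM/F12 and 7.01 in DMEM, and Cd300lb 6.84 in DMEM/F12 and 6.76 in DMEM. Cd300c2 had 5.27 in DMEM/F12 and 5.15 in DMEM, and Cd300e 4.56 in DMEM/F12 and 4.66 in DMEM. Neighbours in this locus therefore differed in direction, with Cd300c at 0.38 beside Cd300ld at -0.22. Rab37, which lies between Cd300e and Cd300lf, had 4.56 on both arrays. Outside the locus, Slc9a3r1, next to Cd300lf, had 8.29 in DMEM/F12 and 8.60 in DMEM. Nat9, 1 place farther, had 4.95 in DMEM/F12 and 5.01 in DMEM. At the other end Gprc5c, next to Cd300a, had 4.88 in DMEM/F12 and 5.20 in DMEM.

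Of the Trem genes only Treml2, with 6.27 in DMEM/F12 and 6.22 in DMEM, and Treml1, known from platelets, with 5.79 in DMEM/F12 and 5.78 in DMEM, were above background, and both were nearly equal. Trem1, Trem3 and Treml4 were not. Altogether 24 receptor genes were not above background on either array, with values of 1.65 to 3.94. They include most of the Clec2 genes, whose products are ligands of natural killer cell receptors, and Clec1a, Clec1b, Clec9a, Clec12a, Clec12b, Clec14a and Clec4g, which is known from liver sinusoids. Of these 24 genes 10 were higher, 11 lower and 3 equal, between -0.44 for Clec4a2 and 0.38 for Clec2g, and 9 lay past 1.2-fold, where 25.9% of all genes not above background did.

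Set out by signal, activating receptors were spread more widely than inhibitory ones. Of 15 activating members above background 9 were higher and 6 lower, with 4 past 1.2-fold in each direction (53.3% in all, against 19.5% of all genes above background), a median of 0.01 and an SD of 0.439. Among the 11 inhibitory members, 8 higher and 3 lower, the median was 0.05 and the SD 0.258. Past 1.2-fold among these were 1 higher (Lilrb4a) and 2 lower (Pilra and Cd300lf), or 27.3%, which at 3 genes is close to the share of all genes. The 15 other members above background had an SD of 0.317, with 33.3% past 1.2-fold. The difference in spread was not tested, and the roles were assigned with earlier results of these data known. The activating members include the signalling chain gene Fcer1g and the neighbours Clec4n, Clec4d and Clec4e. They also include Pilrb1 and Pilrb2, and whether these 2 are measured separately was not tested.

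Among the genes that carry the signals onward, the main adaptor and kinase had nearly equal values. Tyrobp had 11.17 in DMEM/F12 and 11.13 in DMEM, and Syk 7.34 in DMEM/F12 and 7.28 in DMEM. Of 17 measured adaptors and kinases of activating receptors, all above background, 10 were higher, 5 lower and 2 equal; their median was 0.06 and their SD 0.148. Past 1.2-fold were 3 of the 17 (17.6%, near the 19.5% of all genes above background), all higher: the adaptor gene Lcp2 (9.81 in DMEM/F12 and 9.43 in DMEM), Malt1, a protease of the signalling complex with Card9 and Bcl10 (7.34 in DMEM/F12 and 6.97 in DMEM), and the kinase gene Fgr (4.97 in DMEM/F12 and 4.67 in DMEM). Card9 and Bcl10 themselves were within 0.01 of equal. On the inhibitory side 0 of 8 genes passed 1.2-fold, too few genes to set against that share: Ptpn6 had 8.67 in DMEM/F12 and 8.63 in DMEM, Inpp5d 9.01 in DMEM/F12 and 8.79 in DMEM, Ptpn11 7.36 in DMEM/F12 and 7.57 in DMEM, and Csk 7.44 in DMEM/F12 and 7.67 in DMEM.

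**Figure D4:**
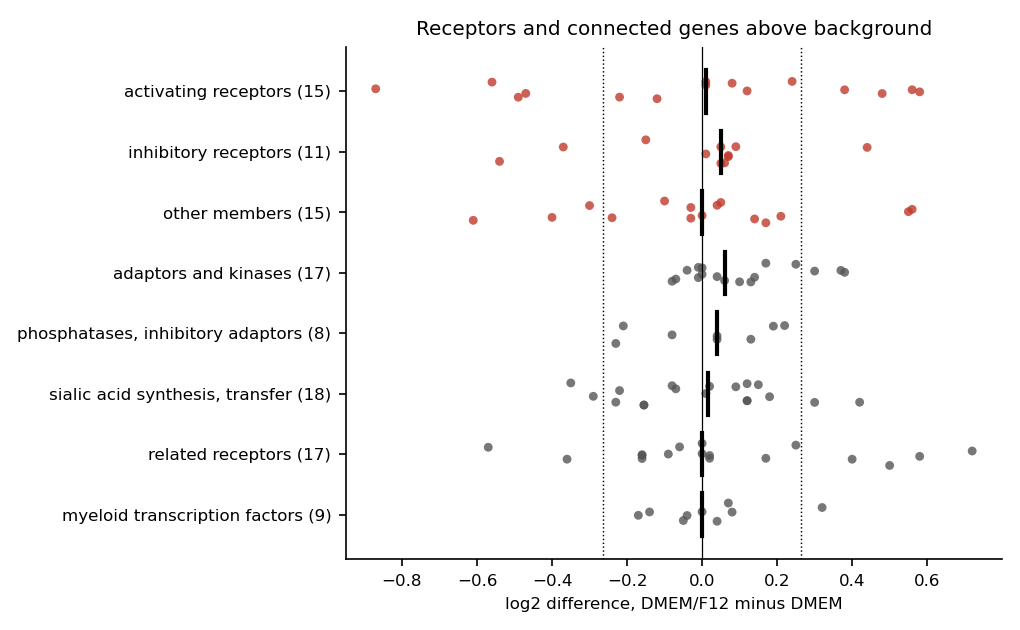
Differences in log2 value between DMEM/F12 and DMEM (x axis) for activating, inhibitory and other receptor genes (red) and of connected gene lists (gray), with the number of genes above background in parentheses (y axis). Each dot is 1 gene, black bars are medians and dotted lines mark 1.2-fold; activating receptors run from -0.87 to 0.58, and adaptors and kinases from -0.08 to 0.38.

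Genes that make, transfer or remove sialic acid, the sugar read by Siglecs and Pilra, showed no common direction. Their median was 0.02 over 18 genes above background, 10 higher and 8 lower. Past 1.2-fold lay 2 in each direction (22.2% in all, near the 19.5% of all genes above background). Gne, the first enzyme of sialic acid synthesis, had 7.36 in DMEM/F12 and 6.94 in DMEM, and the sialyltransferase gene St3gal4 had 5.93 in DMEM/F12 and 6.28 in DMEM. Among 6 listed ligand genes 4 were above background. All 4 were higher, 1 of them past 1.2-fold, where 6410 of all 13225 genes above background were higher. At 4 genes this gives no direction. The largest difference among the 4 was that of Cd52, a small sialylated surface protein, with 8.57 in DMEM/F12 and 7.90 in DMEM (1.59-fold). Pdpn, the ligand of Clec1b, followed with 4.82 in DMEM/F12 and 4.60 in DMEM. Cd24a, below background on both arrays, had 1.45 in DMEM/F12 and 2.19 in DMEM.

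Close relatives outside the symbol rule differed in both directions too. Clec7a (Dectin-1) had 6.56 in DMEM/F12 and 6.06 in DMEM, a difference of 0.50, and Trem2 had 9.63 in DMEM/F12 and 9.23 in DMEM (0.40). Among the genes of this list above background, the largest differences were those of Cd93, at 0.72 (4.61 in DMEM/F12 and 3.89 in DMEM, and 0.46 with the DMEM value raised to background), and Lair1, at 0.58 (4.82 in DMEM/F12 and 4.24 in DMEM). Of 17 such genes above background 8 were higher, 7 lower and 2 equal. Among the lower ones, Cd209c, Cd209g and Cd244a passed background in DMEM only. With values raised to background, Cd209g came to -0.06 and Cd244a to -0.01. Past 1.2-fold were 35.3% of them, against 39.0% of the members above background, and their SD was 0.338. Immunoglobulin-binding genes outside the rule had 3 of 9 above background, the larger differences being those of Pigr (4.06 in DMEM/F12 and 4.29 in DMEM, a difference of -0.23 that became -0.12 with the value raised to background) and Fcrl1 (6.66 in DMEM/F12 and 6.85 in DMEM). Of the 9 measured myeloid transcription factor genes, 1 lay past 1.2-fold (11.1%, against 19.5% of all genes above background). It was Mef2c, with 7.56 in DMEM/F12 and 7.24 in DMEM, and the next was Irf5, with 8.01 in DMEM/F12 and 8.18 in DMEM.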

How the data were processed

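Total RNA of 1 BV2 culture per medium was hybridized to 1 Affymetrix Mouse Gene 1.0 ST array each. The authors deposited log2 values of 28944 transcript clusters, made per the labels with Transcriptome Analysis Console and Affymetrix Expression Console. Not given in the sources used here are their versions, the summarization, the normalization and the build. The number of arrays limits the precision. Symbols came from the platform annotation, and only clusters with 1 symbol (21789) were used. All 65 members were found by Entrez number in GRCm38.p6 with the same symbol. A gene with several clusters takes their mean, and the deposited values were not rescaled.

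The members, families, roles and lists of connected genes were chosen with earlier results of these data known. Every member above background is named, as are 8 fixed genes and, from each connected list, the 2 that differed most among those above background. Other genes named were chosen after their values were seen. No p-value was calculated. Alternatives were median centring, quantile normalization, a loess curve (span 0.3), the brightest cluster per gene, values below background raised to it and only genes above background. The scalings and the 1.5-fold count were tested on simulated data, with changes larger than that of any receptor gene. The simulated noise was smaller than the spread of the real differences (SD 0.217 over all genes above background). Few unchanged genes could therefore pass 1.5-fold in the simulation. The 1.2-fold counts, the background rule and the motif search were not tested in this way. Python 3.11.15, numpy 2.4.6, pandas 2.3.3, statsmodels 0.14.6 and matplotlib 3.10.9 were used.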

Additional observations from a re-analysis of the deposited data

How the results depend on the processing

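No paired analysis was possible because only 1 array was made per medium. Shifts over 0.1 in a log2 value and over 1.5 times in a count are given as moves. The count of receptor genes at least 1.5-fold higher in DMEM/F12 was 0 and became 1 with quantile normalization and 1 with loess centring, when Clec4d came to 0.585 and 0.586. The 2 lower genes at 1.5-fold, the 7 higher (8 with quantile normalization) and 9 lower genes at 1.2-fold and both medians (-0.01 to 0.04) did not move under any alternative run. The median of all 65 genes had a negative sign, -0.01, with median centring only. Of the 41 named receptor genes, Siglece (-0.04) and Clec4f (0.04) moved, both with values raised to background. The scalings shifted the median of all genes by at most 0.02 in size and a receptor gene by at most 0.065. The only receptor gene with 2 clusters, Clec4g, was below background, so the choice of cluster could change little. Low signal limits Pilrb2, Siglece, Clec4f and the 24 genes below background.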
